A study of Arabidopsis with 12 samples.

Results

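The GROWTH-REGULATING FACTOR (GRF) genes and their coactivator GIF1 were followed here in shaded Arabidopsis thaliana leaves. They were chosen by locus identifier: GRF1 (AT2G22840), GRF2 (AT4G37740), GRF3 (AT2G36400), GRF4 (AT3G52910), GRF5 (AT3G13960), GRF6 (AT2G06200), GRF7 (AT5G53660), GRF8 (AT4G24150), GRF9 (AT2G45480) and GIF1 (AT5G28640), which is also known as AN3. All 10 members were found among the 32833 genes of the deposited table and passed the filter on low values, as did 19862 genes in all. GRF8 passed it only through phyA-211 libraries. The filter asked for at least 1 TPM (a transcript level corrected for length and scaled to a fixed library sum) in at least 3 libraries. Locus identifiers were needed because the table gives the names GRF1 to GRF3 and GRF5 to GRF9 to 8 other genes as well, the unrelated 14-3-3 proteins known as general regulatory factors.

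GRF proteins are plant-specific transcription factors that bind DNA through a WRC domain and bind GIF proteins through a QLQ domain. GIF1 has no DNA-binding domain of its own and brings the SWI/SNF chromatin-remodelling complex to GRF targets. In leaves the pair is known for keeping young cells dividing, so that plants with more of it make more leaf cells. The microRNA miR396 cleaves the transcripts of GRF1 to GRF4 and GRF7 to GRF9, while GRF5 and GRF6 lack its site. CIN-type TCP factors, themselves targets of miR319, raise miR396 and so restrain the module.

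The study asked how sucrose and phytochrome A act on leaf development in shade, as its title says. The 12 libraries were made from leaf portions and fell into 4 groups of 3: Col-0, the wild type, with 30 mM sorbitol; Col-0 with 30 mM sucrose; phyA-211, which carries 1 mutant allele of PHYA, the gene of a far-red light receptor, with 30 mM sorbitol; and phyA-211 with 30 mM sucrose. All seedlings grew for 10 days in white light and were then shaded for 6 h (R/FR 0.17), controls included, so no comparison measures shade itself. Nothing in the labels ties replicates to separate cultures, and p-values therefore measure the spread among these libraries only, part or all of which could be technical.

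PHYA was listed at 223 to 385 TPM in the Col-0 libraries and at 32.5 to 44.9 TPM in those of phyA-211, as labelled. The 6 leaf markers summed to between 21970 and 47753 TPM, with the lowest sum in phyA-211 sucrose replicate 3. That library stood farthest from its group mates over all genes tested (0.590 log2 units, root mean square, against 0.340 to 0.504 for the others). The 9 shoot apex markers summed to 26.0 to 38.7 TPM. Among them KNAT1 was at 10.6 to 19.0 TPM and STM at 2.83 to 4.26 TPM. WUS, which marks the stem cell organising centre, was at 0.24 TPM or less in all 12 libraries. The root marker PYK10, a beta-glucosidase, was listed at 646 to 1799 TPM, while the other 9 root markers summed to 4.42 to 47.8 TPM. Read counts cannot be had from TPM, so the depth is unknown and no counting interval is given.

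GRF3 and GIF1 were the most abundant members of the module, and GRF6 and GRF8 were close to the filter. GRF3, which acts redundantly with GRF1 and GRF2 in leaf growth, averaged 27.8 ± 4.78 TPM (SD, n = 12 libraries) and ranked highest in every library. GIF1 averaged 20.3 ± 3.32 TPM and exceeded GRF1 in 12 of 12 libraries. GRF1 at 12.9 ± 2.15 TPM and GRF2 at 12.1 ± 3.21 TPM did not separate, since GRF1 was the higher in 8 of 12 libraries. GRF2 exceeded GRF7 in 10 of 12 libraries. GRF7, a repressor of the drought-response gene DREB2A, averaged 8.73 ± 5.35 TPM and GRF5, which promotes leaf cell number, 7.89 ± 1.88 TPM, and each was above the other in 6 of 12 libraries. GRF5 exceeded GRF4 (4.94 ± 1.07 TPM) and GRF4 exceeded GRF9 (3.35 ± 0.478 TPM) in all 12. GRF9 in turn exceeded GRF6 in 12 of 12 libraries. GRF6 at 1.43 ± 0.567 TPM and GRF8 at 0.860 ± 0.471 TPM swapped places in 4 of 12 libraries. These are levels per transcript length, and the range from GRF8 to GRF3 was 32.3-fold.

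**Figure D1:**
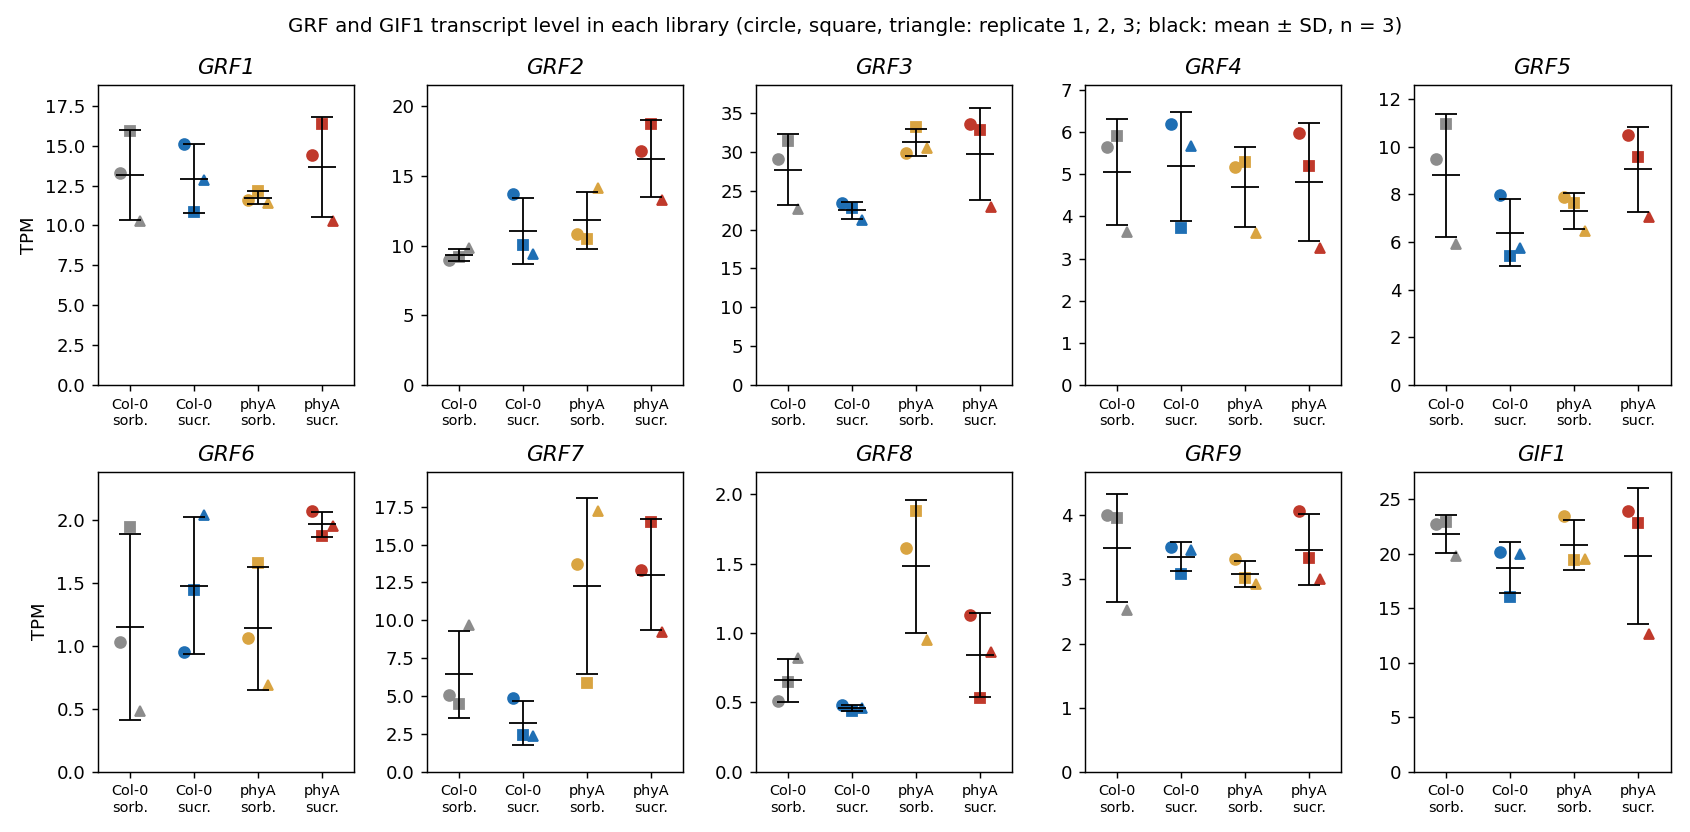
TPM of each member (vertical axis, from 0, own scale per panel) in the 4 groups, with 1 symbol per library and the mean ± SD in black. GRF7 lies at 9.21 to 16.5 TPM in phyA-211 with sucrose and at 2.34 to 4.87 TPM in Col-0 with sucrose, while GRF1, GRF4 and GRF9 overlap among all groups.

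The 9 GRF genes summed to 60.2 to 104.9 TPM per library. GRF3 made up 30.7% to 40.9% of this pool in the 12 libraries. GRF5 and GRF6, the pair without a miR396 site, made up 8.12% to 15.3%. GRF7 had the largest SD of the members over the 12 libraries, 5.35 TPM. Its share of the pool was 6.59%, 5.32% and 14.8% in Col-0 with sorbitol and 6.39%, 4.05% and 3.70% in Col-0 with sucrose. In phyA-211 it was 16.1%, 7.22% and 19.6% with sorbitol and 13.1%, 15.7% and 12.8% with sucrose. The shares of the genotypes did not overlap with sucrose and did overlap with sorbitol. In bulk leaf tissue, fewer cells of a type and less RNA per cell cannot be told apart.

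**Figure D2:**
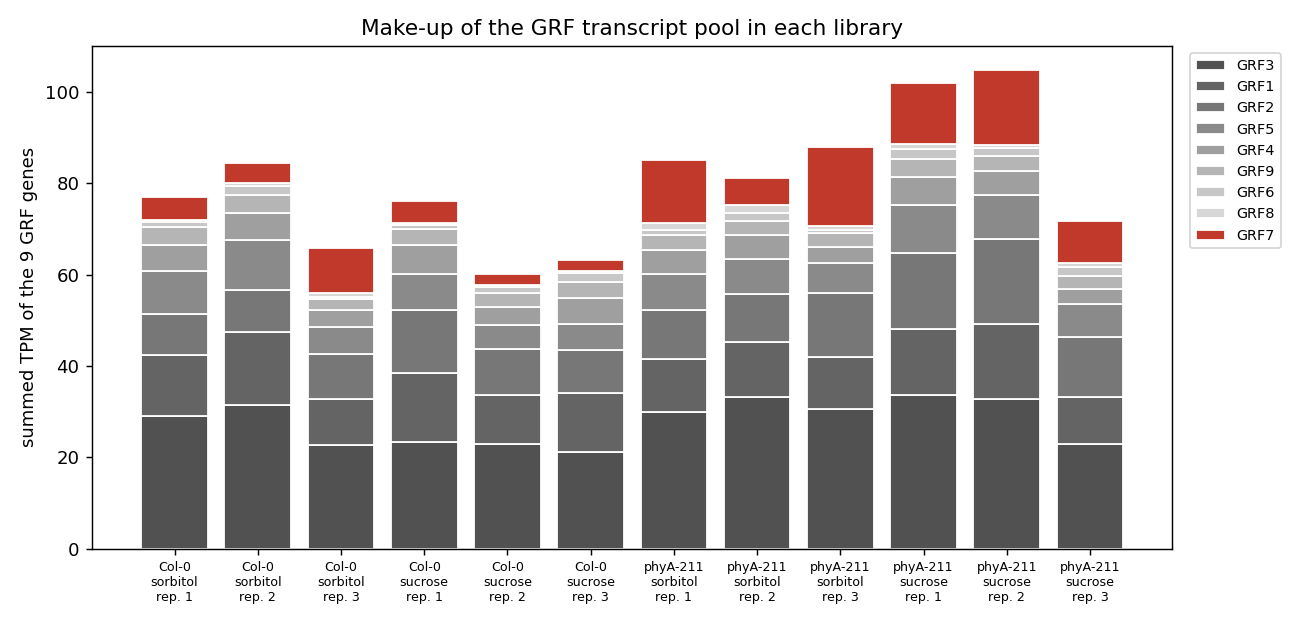
Summed TPM of the 9 GRF genes in each of the 12 libraries (bars from 0), split by gene, with GRF7 in red on top. The red part takes 12.8% to 15.7% of the pool in phyA-211 with sucrose and 3.70% to 6.39% in Col-0 with sucrose.

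Sucrose against sorbitol, the question of sugar supply in shade, gave no call for any of the 10 members. Changes were fitted with limma on log2(TPM + 1) across all genes tested, with Benjamini-Hochberg adjustment, and an adjusted p under 0.05 was called. In Col-0, 0 of 10 members were called against 22.1% of all genes tested, and 0 members had an unadjusted p under 0.05. In phyA-211, 0 of 10 were called against 27.5% of all genes tested, and 1 member, GRF2, had an unadjusted p under 0.05. Averaged over the genotypes, which uses all 12 libraries and so shares them with both comparisons, 0 of 10 were called against 42.8%, again with 1 member, GRF2, at an unadjusted p under 0.05. The median member change averaged over genotypes was -0.02 on the log2 scale, beside 0.09 for all genes tested.

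GIF1 stood at 22.7, 22.9 and 19.8 TPM in the Col-0 sorbitol libraries and 20.1, 16.02 and 20.0 TPM in their sucrose counterparts. The phyA-211 libraries held 23.4, 19.5 and 19.5 TPM under sorbitol and 23.9, 22.8 and 12.6 TPM under sucrose. All 4 groups overlapped, and the lowest value belonged to phyA-211 sucrose replicate 3. The change averaged over genotypes was -0.16 (SE 0.145; 95% interval -0.48 to 0.15; limma adjusted p = 0.385).

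GRF3 was listed at 29.1, 31.5 and 22.6 TPM in the Col-0 sorbitol libraries and 23.4, 22.8 and 21.3 TPM in their sucrose counterparts. The phyA-211 libraries held 29.9, 33.2 and 30.6 TPM under sorbitol and 33.6, 32.8 and 23.0 TPM under sucrose. The sugars overlapped in both genotypes, and the averaged change was -0.18 (SE 0.111; 95% interval -0.42 to 0.06; adjusted p = 0.211). This gene passed the test only after rescaling by the median ratio (-0.30, adjusted p = 0.0485) or with the planned library weights (-0.13).

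GRF2 stood at 9, 9.2 and 9.81 TPM in the Col-0 sorbitol libraries and 13.7, 10.03 and 9.38 TPM in their sucrose counterparts. The phyA-211 libraries held 10.8, 10.5 and 14.2 TPM under sorbitol and 16.8, 18.7 and 13.2 TPM under sucrose. The highest values were those of phyA-211 with sucrose, but replicate 3 of that group lay below the highest sorbitol library. The averaged change was 0.32 (SE 0.121; 95% interval 0.05 to 0.58; adjusted p = 0.0544). It was called in 3 of 12 fits that left out 1 library. Those were the fits without phyA-211 sorbitol replicate 3, Col-0 sucrose replicate 3 or phyA-211 sucrose replicate 3. The last of these gave 0.38 (adjusted p = 0.0244).

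GRF5 stood at 9.5, 10.95 and 5.93 TPM in the Col-0 sorbitol libraries and 7.99, 5.40 and 5.77 TPM in their sucrose counterparts. The phyA-211 libraries held 7.87, 7.63 and 6.45 TPM under sorbitol and 10.5, 9.58 and 7.07 TPM under sucrose. Its changes were -0.39 in Col-0 (95% interval -0.86 to 0.09) and 0.26 in phyA-211 (95% interval -0.22 to 0.74), and the groups overlapped in each genotype. The difference between these changes was 0.65 (SE 0.309, unadjusted p = 0.0581, adjusted p = 0.999).

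GRF6 was listed at 1.06, 1.66 and 0.69 TPM in the phyA-211 sorbitol libraries and 2.07, 1.87 and 1.95 TPM in the sucrose ones, with no overlap, as for 41.5% of all genes tested in that comparison. Its change there was 0.50 (95% interval -0.09 to 1.09, adjusted p = 0.189). In Col-0 it was listed at 1.03, 1.94 and 0.48 TPM under sorbitol and 0.95, 1.44 and 2.04 TPM under sucrose, which overlapped. GRF8 did not overlap between the sugars in Col-0, at 0.51, 0.65 and 0.82 TPM with sorbitol and 0.48, 0.44 and 0.46 TPM with sucrose, as did 42.6% of all genes tested there. All of these GRF8 values were under 1 TPM, and the change was -0.18 (95% interval -0.63 to 0.27). GRF7 had sucrose changes of -0.80 in Col-0 (95% interval -1.64 to 0.03, adjusted p = 0.156) and 0.16 in phyA-211 (95% interval -0.67 to 0.99, adjusted p = 0.784), and its libraries overlapped in both. GRF1 ranged from 10.3 to 16.4 TPM, GRF4 from 3.26 to 6.19 TPM and GRF9 from 2.52 to 4.07 TPM over the 12 libraries, and the sugars overlapped for all of them. GRF1, GRF4 and GRF9 had averaged changes of 0.08, 0.02 and 0.05, each with a 95% interval between -0.35 and 0.40. The intervals of all 10 members for the averaged change lay within -0.91 and 0.78.

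The counts of 0 depended on how libraries were weighted. With limma's library weights estimated gene by gene, an alternative chosen after seeing the data, 4 of 10 members (GRF3, GRF5, GRF7 and GIF1, all lower with sucrose) were called in Col-0 against 45% of all genes tested. In phyA-211 they numbered 4 of 10 (GRF1, GRF2, GRF5 and GRF6, all higher) against 57.4%.

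The interaction, or how far the sucrose change of the mutant exceeded that of Col-0, was called for 0 of 10 members and for 0.0101% of all genes tested. No member had an unadjusted p under 0.05. GRF7 had the widest difference, 0.96 (SE 0.540; 95% interval -0.22 to 2.14; adjusted p = 0.999). With library weights estimated gene by gene, 4 members were called against 6.93% of all genes tested, namely GRF1, GRF3, GRF5 and GIF1, so these calls depended on how the libraries were weighted. Those weights gave the least to phyA-211 sucrose replicate 3 (0.192) and the most to Col-0 sucrose replicate 2 (4.89).

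**Figure D3:**
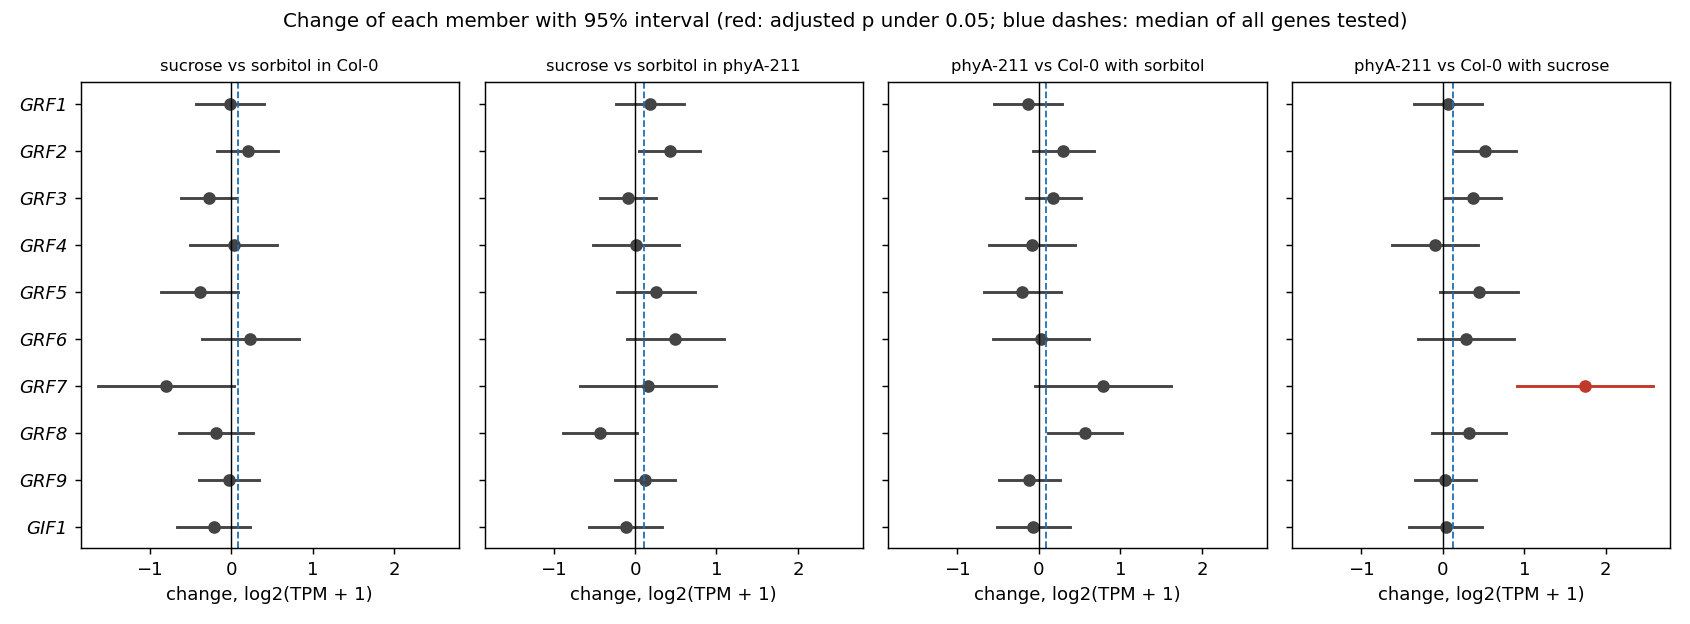
Change of each member on the log2(TPM + 1) scale (horizontal axis) with its 95% interval in 4 comparisons, with called members in red and the median of all genes tested as a dashed line. Only GRF7 in phyA-211 against Col-0 with sucrose is red, at 1.75.

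The genotypes were compared under each sugar, which addresses what phytochrome A adds in shade. GRF7 was higher in phyA-211 than in Col-0 with sucrose. It stood at 4.87, 2.44 and 2.34 TPM in Col-0 against 13.3, 16.5 and 9.21 TPM in phyA-211, so the lowest mutant library lay above the highest Col-0 library. The log2 change was 1.75 (SE 0.382; 95% interval 0.92 to 2.58; limma adjusted p = 0.018), larger than in 99.7% of genes tested. In this comparison 1 of 10 members was called, GRF7, against 7.4% of all genes tested. No overlap was seen for 2 of 10 members, GRF7 and GRF8, against 27.6% of all genes tested. GRF8 passed the filter only through phyA-211 libraries and was at 0.44 to 0.48 TPM in Col-0 with sucrose, so its place in this count carries no weight. The median change of the 10 members was 0.301, beside 0.125 for all genes tested. This median includes GRF8 and was not computed without it, so no shift of the members is read from it. Leaving out 1 library at a time kept the change of GRF7 between 1.57 and 2.01. The call was lost without Col-0 sucrose replicate 2 (adjusted p = 0.0853), Col-0 sucrose replicate 3 (adjusted p = 0.0702) or phyA-211 sucrose replicate 2 (adjusted p = 0.0765).

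With sorbitol, GRF7 stood at 5.08, 4.49 and 9.72 TPM in Col-0 against 13.7, 5.86 and 17.2 TPM in phyA-211. Col-0 replicate 3 was high and phyA-211 replicate 2 was low within their groups, and the genotypes overlapped. The change was 0.79 (SE 0.382; 95% interval -0.05 to 1.62; adjusted p = 0.388). Averaged over the sugars it was 1.27 (SE 0.270; 95% interval 0.68 to 1.86; adjusted p = 0.0101), and this call held in all 12 fits that left out 1 library. The averaged comparison called 2 of 10 members, GRF7 and GRF2, against 13.7% of all genes tested. Some tissue markers moved with the genotype under sucrose as well, and their part in the GRF7 difference was not tested. Of 6 leaf markers tested, only GAPA, a Calvin cycle enzyme subunit, was called, at -0.89 (adjusted p = 0.0489), against 7.4% of all genes tested. All 6 had changes below 0, from -0.887 to -0.006, with a median of -0.516. The 6 leaf markers were also below 0 with sorbitol, where GRF7 was not called. There the changes ran from -0.666 to -0.108 with a median of -0.478, and 0 were called. Under sucrose, GAPA stood at 1319, 1416 and 1179 TPM in Col-0 against 946, 828 and 443 TPM in phyA-211. RCA, the Rubisco activase, stood at 4165, 4532 and 3908 TPM against 3309, 2842 and 1508 TPM (-0.79, adjusted p = 0.121). Neither gene overlapped between the genotypes, both being lower in every phyA-211 library. These were 2 of 6 leaf markers, against 27.6% of all genes tested that did not overlap. PYK10, 1 of 6 root markers tested, did not overlap either. It stood at 1412, 1275 and 1198 TPM in Col-0 against 853, 1082 and 1190 TPM in phyA-211, but was not called (-0.32, adjusted p = 0.526). The summed levels overlapped for each marker list once PYK10 was left out. Shoot apex sums were 36.8, 34.6 and 28.7 TPM in Col-0 and 26.0, 33.9 and 38.3 TPM in phyA-211. Leaf sums were 38327, 42451 and 39508 TPM in Col-0 and 44537, 40330 and 21970 TPM in phyA-211. The leaf markers CAB1 and RBCS1A, at means of 22588 and 10425 TPM over the 12 libraries, weigh most in these sums. Root sums without PYK10 were 12.04, 4.82 and 21.3 TPM in Col-0 and 4.42, 11.7 and 11.8 TPM in phyA-211.

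GRF2 was higher in phyA-211 averaged over sugars, at a log2 change of 0.41 (SE 0.121; 95% interval 0.15 to 0.68; adjusted p = 0.0445). This call was marginal. It was lost after rescaling by the median ratio (0.32, adjusted p = 0.127), after quantile normalization (0.31, adjusted p = 0.144), without a filter on low values (0.41, adjusted p = 0.0617), and in 9 of 12 fits without 1 library. By sugar, the change was 0.30 with sorbitol (adjusted p = 0.488), where the genotypes did not overlap, and 0.52 with sucrose (adjusted p = 0.0902), where they did. Without phyA-211 sucrose replicate 3, GRF2 (0.65, adjusted p = 0.0438) and GRF3 (0.54, adjusted p = 0.0332) joined GRF7 for the comparison with sucrose, 3 of 10 members against 8.11% of all genes tested. GRF2 also joined GRF7 without Col-0 sucrose replicate 1 (0.68, adjusted p = 0.0421), 2 of 10 members against 6.69% of all genes tested.

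GRF8 stood under sorbitol at 0.51, 0.65 and 0.82 TPM in Col-0 against 1.61, 1.88 and 0.95 TPM in phyA-211. Under sucrose the values were 0.48, 0.44 and 0.46 TPM in Col-0 against 1.13, 0.53 and 0.86 TPM in phyA-211. No library of phyA-211 lay below any of Col-0 under the same sugar, but GRF8 entered the test only because 3 phyA-211 libraries reached 1 TPM. Neither change was called (0.56, adjusted p = 0.235 with sorbitol; 0.32, adjusted p = 0.374 with sucrose). With sorbitol, 0 of 10 members were called against 2.15% of all genes tested, and 1, GRF8, had an unadjusted p under 0.05. There, 2 of 10 members, GRF2 and GRF8, did not overlap between genotypes, against 20% of all genes tested.

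None of the remaining members was called between genotypes. GIF1 had changes of -0.07 with sorbitol (95% interval -0.52 to 0.38) and 0.03 with sucrose (95% interval -0.41 to 0.48). GRF3 had changes of 0.18 with sorbitol and 0.37 with sucrose (adjusted p = 0.177). GRF5 had changes of -0.20 with sorbitol and 0.45 with sucrose (adjusted p = 0.239). Averaged over sugars, GRF1, GRF4, GRF6 and GRF9 had values of -0.04, -0.09, 0.15 and -0.04, with 95% intervals that lay within -0.47 and 0.57.

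In some of the 12 libraries most members lay on the same side of both group mates. The share of all genes tested that did so was not computed, so these counts show no trait of the members. In phyA-211 sucrose replicate 3, 8 of 10 members were below both group mates. In Col-0 sorbitol replicate 3, 7 of 10 were below both mates, while GRF2, GRF7 and GRF8 were above both. In Col-0 sucrose replicate 1, 9 of 10 were above both mates. The part of library make-up in these deviations was not tested, but the starvation gene ASN1, chosen after its values were seen, also set the first 2 of these libraries apart. ASN1, an asparagine synthetase, stood at 4.07 TPM in phyA-211 sucrose replicate 3 against 122.9 and 189 TPM in its mates. It stood at 1442 TPM in Col-0 sorbitol replicate 3 against 512 and 552 TPM.

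**Figure D4:**
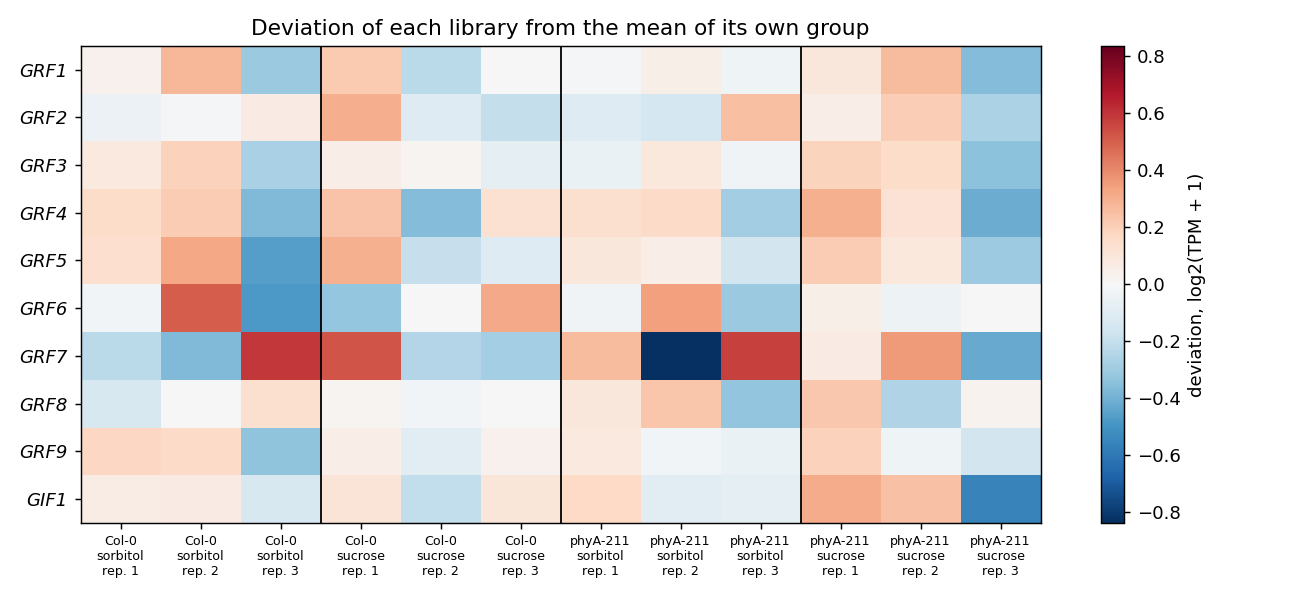
Deviation of each member (rows) in each library (columns) from its own group mean, on the log2(TPM + 1) scale, with red above and blue below. The last column, phyA-211 sucrose replicate 3, is blue for most members, and in Col-0 sorbitol replicate 3 GRF2, GRF7 and GRF8 are red while the other 7 members are blue.

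The partners of the GRF proteins were followed next. GIF2, a close relative of GIF1, was the most abundant GIF gene at 41.8 ± 5.57 TPM (SD, n = 12). With sorbitol it stood at 42.4, 47.1 and 37.5 TPM in Col-0 against 45.8, 43.6 and 52.5 TPM in phyA-211. Under sucrose the values were 36.6, 32.2 and 36.3 TPM in Col-0 against 41.5, 45.0 and 41.4 TPM in phyA-211. GIF2 with sucrose in Col-0 lay under all sorbitol libraries of Col-0, in a comparison where 42.6% of all genes tested did not overlap. The change of -0.26 was not called (adjusted p = 0.122). GIF3 stood at 2.08, 3.60 and 1.47 TPM in the Col-0 sorbitol libraries and 3.26, 3.27 and 2.52 TPM in their sucrose counterparts. The phyA-211 libraries held 3.5, 4.12 and 3.26 TPM under sorbitol and 5.39, 4.65 and 4.89 TPM under sucrose. GIF3 was higher in phyA-211 averaged over sugars, at 0.54 (SE 0.149; 95% interval 0.21 to 0.86; adjusted p = 0.0343), as were 8.3% of all genes tested. Its sucrose change averaged over genotypes was 0.33 (adjusted p = 0.0928). Between genotypes with sucrose, GIF2 and GIF3 were both higher in phyA-211 without overlap, as 27.6% of all genes tested did not overlap there. Neither was called in that comparison.

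MIR396A was listed at 0 in all 12 libraries, and MIR396B at 0.16 to 0.18 TPM in 5 libraries and at 0 in the others. Neither passed the filter, and the libraries were made from polyadenylated RNA, so mature miR396 was not measured. Among 11 SWI/SNF subunits, 2 rose and 1 fell with sucrose averaged over genotypes, a smaller share than the 42.8% of all genes tested that were called. ARP7, an actin-related subunit, rose by 0.41 (adjusted p = 0.00131), SWI3C, a core subunit, rose by 0.33 (adjusted p = 0.0323), and BSH, the SNF5 homologue, fell (-0.35, adjusted p = 0.0281). The ATPases BRM (0.14, adjusted p = 0.479) and SYD (0.20, adjusted p = 0.322) were not called.

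Only part of the genes reported as targets of GIF1 were listed here, so their counts do not describe such targets as a set. The 4 listed genes all changed with sucrose averaged over genotypes. Of these, 2 rose and 2 fell, against calls for 42.8% of all genes tested. By genotype, 2 rose and 2 fell in Col-0, while 2 rose and 0 fell in phyA-211, against calls for 22.1% and 27.5%. The interaction was called for 0 of the 4. ARR4, a cytokinin response regulator, rose from 14.8 ± 0.994 to 40.5 ± 5.14 TPM in Col-0 and from 18.8 ± 4.04 to 27.8 ± 5.41 TPM in phyA-211 (averaged log2 change 0.96, adjusted p = 0.00017). CRF2, a cytokinin response factor, rose by 0.79 (adjusted p = 0.000739), and COL5, a CONSTANS-like protein, fell (-0.54, adjusted p = 0.000657). HEC1, a bHLH factor chosen after its values were seen, fell averaged over genotypes (-0.65, adjusted p = 0.03). It went from 17.9 ± 7.38 to 7.70 ± 0.603 TPM in Col-0 and from 28.2 ± 9.86 to 22.9 ± 4.88 TPM in phyA-211. HEC1 was also higher in phyA-211 with sucrose, as GRF7 was, at 7.63, 8.33 and 7.13 TPM in Col-0 and 27.6, 23.2 and 17.8 TPM in phyA-211 (1.44, adjusted p = 0.0151). The other 3 genes of that list were not called in that comparison.

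The miR319-targeted TCP genes, which act upstream of miR396, rose with sucrose in 4 of 5 cases averaged over genotypes, against rises in 26.3% of all genes tested. TCP4 rose from 20.3 ± 6.89 to 41.6 ± 9.20 TPM in Col-0 and from 17.0 ± 5.28 to 39.2 ± 10.03 TPM in phyA-211 (1.10, adjusted p = 0.00127). TCP24 rose by 0.45 and TCP2 by 0.48. Of 9 other leaf size regulators, 2 rose and 3 fell, beside calls for 42.8% of all genes tested. ANT, which prolongs organ growth, rose by 0.65 (adjusted p = 0.00188) and KLU, a cytochrome P450 that promotes growth, by 0.48 (adjusted p = 0.0027). ARGOS, a growth promoter induced by auxin, fell (-0.83, adjusted p = 0.00298). By genotype, 2 of the 9 rose and 3 fell in Col-0, beside calls for 22.1% of all genes tested. In phyA-211, 1 rose and 0 fell, beside 27.5%. ARGOS averaged 53.1 TPM with sorbitol and 19.2 TPM with sucrose in Col-0, and 78.3 and 64.4 TPM in phyA-211. The interaction was called for 0 of the 9. With sucrose, 3 of these 9 genes were higher in phyA-211, as GRF7 was, against 4.15% of all genes tested. They were ARGOS (1.70), ARL (1.79) and PPD2 (0.67), of which ARL and PPD2 were chosen after their values were seen.

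Genes of cell proliferation were counted in the same libraries. All 7 DNA replication genes rose with sucrose in each genotype, where 12.1% of all genes tested rose in Col-0 and 16.9% in phyA-211, and their median averaged change was 1.32. PCNA1, the sliding clamp of DNA polymerase, rose by 1.52 (adjusted p = 5.26e-05), and MCM4 and MCM7, subunits of the replicative helicase, by 1.21 and 1.29. Mitotic genes rose in 4 of 15 cases averaged over genotypes, a share close to the 26.3% of all genes tested that rose, with a median of 0.26. CDKB1;1, a mitotic kinase, rose by 0.60 (adjusted p = 0.00441), CDKB1;2 by 0.52 and the cyclin CYCA1;1 by 0.46. Tissue markers were called in 4 cases in the comparisons averaged over genotypes or over sugars. With sucrose, CUC2 rose by 0.48 and KNAT6 fell (-0.38) among 6 apex markers tested, and the root aquaporin TIP2;3 fell (-1.54). The 6 root markers tested had 3 changes up and 3 down, with a median of -0.083, and 42.8% of all genes tested were called. Between genotypes averaged over sugars, the leaf gene GAPA was lower in phyA-211 (-0.78), the only call among 6 leaf markers, against 13.7% of all genes tested. No difference between lists was tested, and the groups of genes were chosen with earlier results of these libraries known.

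**Figure D5:**
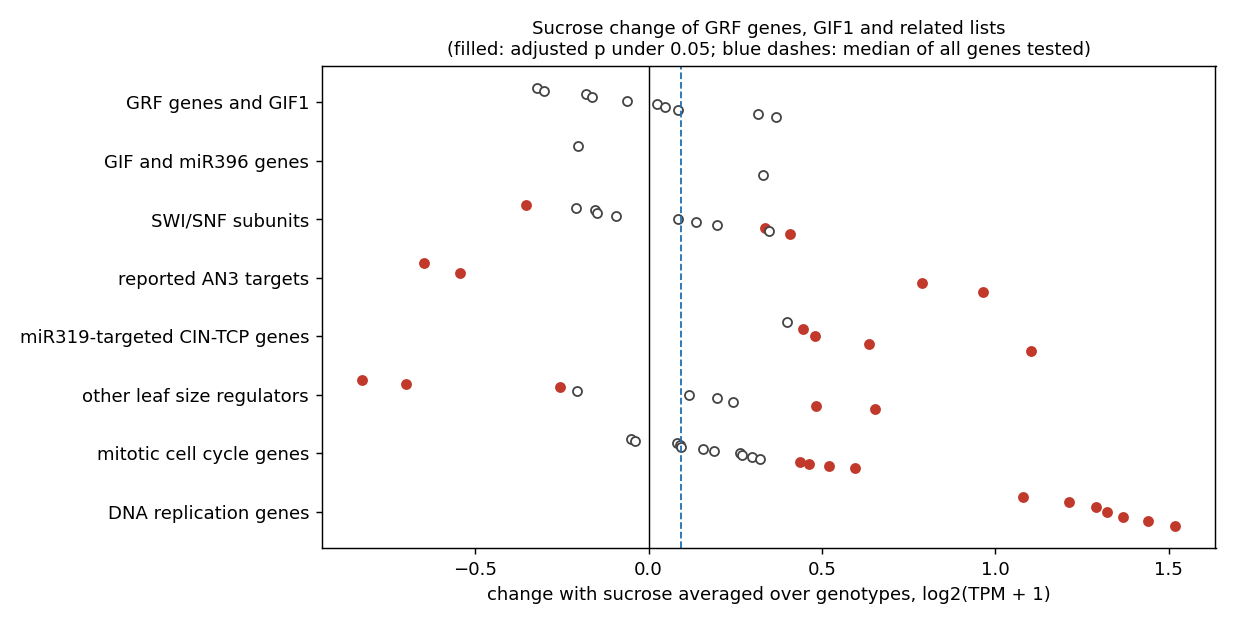
Sucrose change averaged over genotypes on the log2(TPM + 1) scale (horizontal axis) for each tested gene of the module and of 7 related lists, filled where called. All 10 members are open circles between -0.32 and 0.37, while all 7 DNA replication genes are filled and lie between 1.08 and 1.52.

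Genes outside the module were ranked by how like their pattern over the 12 libraries was to that of GIF1 and of GRF3, the GRF of highest level. Members were left out of this ranking and are few beside the genes compared. That closer genes lie outside the module therefore says nothing about the module. The part of single libraries in these likenesses was not tested. Likeness was the root mean square difference of standardised log2 values, in SD units, over 14957 genes with a mean of at least 5 TPM. For GIF1 the closest were ROP10, a small GTPase (0.400), AT1G44760 (0.429), LHCB4.2, an antenna protein (0.450), MINE1, a plastid division protein (0.468), and PSBQ-2, a photosystem II subunit (0.484). The closest member to GIF1 was GRF4, at 0.687. For GRF3 the closest were BXL2, a beta-xylosidase (0.283), AT3G60415 (0.332), DJ1B (0.348), COL4, a CONSTANS-like factor (0.353), and emb1513 (0.355). Its closest member was GRF5, at 0.698.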

How the data were processed

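The authors deposited 1 table of length-corrected TPM for 32833 genes in 12 libraries of polyadenylated RNA, per the file headers, with column sums of 998274.11 to 998846.46. The submitters' processing notes name fastp, cutadapt, HISAT2, DESeq2 and the build TAIR10, without versions; the program behind the TPM values is not given in the sources used here. TPM holds no counts, so depth is unknown.

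Genes with at least 1 TPM in at least 3 libraries (19862) were fitted as log2(TPM + 1) with limma 3.58.1 in R 4.3.3 (lmFit, eBayes with trend) as 4 group means with no block, with 8 residual and 3.68 prior degrees of freedom. There were 7 contrasts, each 2-sided with Benjamini-Hochberg adjustment over all genes tested at 0.05. The scale understates changes of low genes. The code was tested on simulated data with 200 changed genes.

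Named by rule were all 10 members, PHYA, the GIF and MIR396 genes, called tissue markers, and the 5 genes most like GIF1 and GRF3. Up to 3 genes per related list were added by adjusted p for the averaged sucrose change. Genes named outside this rule include BRM, SYD, HEC1, ARL, PPD2, ASN1 and uncalled tissue markers such as RCA and PYK10. Members and lists were chosen with earlier results of these data known. Gene order and aliases came from RefSeq (TAIR10.1), without coordinates. The alternatives were other pseudocounts (0.1 and 0.5), filters, scalings, library weights, a replicate block, 2-group fits and leaving out libraries.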

Additional observations from a re-analysis of the deposited data

How the results depend on the processing

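Of 516 member values under other pseudocounts, filters, scalings, the block or 2-group fits, 509 kept their side of the threshold, 4 lost and 3 gained a call. In 17 of them an uncalled value changed sign. The median of all genes moved under median ratio rescaling, by -0.13 for sucrose in phyA-211, -0.11 for sucrose averaged over genotypes and -0.11 for the genotypes with sucrose. For sucrose averaged over genotypes the count of members went from 0 to 1 (GRF3) with that rescaling, against 45.2% of all genes tested. It also went to 1 (GRF2, against 46.7%) with at least 1 TPM in all 12 libraries. For phyA-211 against Col-0 averaged over sugars the count went from 2 to 1 with median ratio rescaling and with quantile normalization, each against 13% of all genes tested. The replicate block also gave 1, against 12.3%. GRF2 was lost each time, while without a filter, against 10.1% of all genes, GRF8 replaced GRF2.

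The replicate block was only a check, because 6 of 18 same-numbered pairs had deviations correlated over 0.1 (r from -0.268 to 0.31) and 0 of 12 libraries were closest to their own number in all other groups. With the block GRF7 kept its call with sucrose (adjusted p = 0.0264), and apart from the averaged genotype count no count of members moved.

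Planned library weights ran from 0.0853 to 94.4, so that 3 libraries dominated. They called 7 members for sucrose in Col-0, 9 in phyA-211, 7 for genotype with sorbitol, 10 with sucrose, 9 for the interaction, and 6 each for the averaged sucrose and genotype changes, with 46.8% to 91.5% of all genes. Reversed there were GRF4 (-0.47 for sucrose in Col-0, 0.39 for genotype with sucrose, 0.90 for the interaction), GRF3 (0.10) and GIF1 (0.22) for sucrose in phyA-211, GRF6 (-0.51) for genotype with sorbitol, and GRF1 (0.12) and GIF1 (0.14) for genotype averaged over sugars. Weights estimated gene by gene (0.192 to 4.89), added after seeing the data, called 4, 4, 3, 6, 4, 3 and 3 members in the same order. The shares of all genes tested that they called were 45%, 57.4%, 25.3%, 43.4%, 6.93%, 62.2% and 45.3%. The cause was not tested.

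Leaving out 1 library gave 0 to 1 called members for sucrose in phyA-211 and for sucrose averaged over genotypes, 0 to 3 for genotype with sucrose and 1 to 3 for genotype averaged over sugars, and 0 in all 12 fits for the other 3 comparisons. In these fits, 11.7% to 30.7% of all genes tested were called for sucrose in phyA-211 and 35% to 45.6% for averaged sucrose. The share was 2.87% to 8.11% for genotype with sucrose and 7.6% to 14.9% for genotype averaged over sugars. Leaving out phyA-211 sorbitol replicate 2 and phyA-211 sucrose replicate 3 together, also added, gave 1 for averaged sucrose, against 43.7% of all genes tested. That fit gave 3 for genotype with sucrose, against 9.75%, and 3 for genotype averaged over sugars, against 15.2%. The unknown depth limits what can be said of GRF6 and GRF8.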

Other observations

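The 14-3-3 genes that share names with the GRF members in the deposited table were far more abundant. Their means ran from 69.8 TPM (the second GRF7, AT3G02520) to 484 TPM (the second GRF1, AT4G09000), which was 8-fold to 329-fold the mean of the growth-regulating factor of the same name. A search of the table by symbol would return both genes for 8 of the 9 GRF names.

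GRF2 lies next to ANT on its chromosome, and each promotes leaf growth. ANT rose with sucrose in Col-0 (0.55, adjusted p = 0.0472) and in phyA-211 (0.75, adjusted p = 0.012), while GRF2 had changes of 0.20 (adjusted p = 0.429) and 0.43 (adjusted p = 0.0836) that were not called. The difference between the neighbours was not tested. Of the 20 protein-coding genes that flank the 10 members, 15 were tested and 5 were called for sucrose averaged over genotypes, 33.3% against 42.8% of all genes tested.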
